A study of Mustela putorius furo and Mus musculus with 4 samples.

Results

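The neurogenic basic helix-loop-helix (bHLH) factors Neurog1, Neurog2, Neurod1, Neurod2, Neurod4, Neurod6 and Bhlhe22, with the T-box factor Eomes (Tbr2) and the zinc-finger factor Insm1, were followed through radial glia (RG cells), pyramidal neuron intermediate progenitor cells (PyN-IPCs) and pyramidal neurons (PyNs). The 9 members were taken by symbol, and all 9 were found among the 17170 genes of the mouse table and, in upper case, among the 22008 genes of the ferret table. The data were single-cell RNA counts of the cortex, each count being 1 unique molecular identifier (UMI), a tag that marks 1 captured RNA molecule. The mouse cells came from E18 cortex of the CD1 strain, where a fluorescent dye (Flash-Tag, CellTrace Yellow) had been given into the ventricle at E17, and labelled cells were sorted. One library (Smo-cKO) had the genotype hGFAP-Cre;Smo F/F, in which a human GFAP promoter drives Cre in cortical RG cells and deletes Smoothened (Smo), the membrane protein that passes the Sonic hedgehog signal on. The other library came from Smo F/F littermates without Cre, labelled wild type and called control here. The ferret cells came from E39 cortex of 1 embryo, for which no sort is described, and fall into 2 barcode sets that could not be tied to separate animals. The descendants of a recombined RG cell inherit the deletion, so PyN-IPCs and PyNs born from it also lack Smo.

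In the developing cortex, RG cells divide at the ventricle and give rise to PyN-IPCs, which divide again to produce glutamatergic neurons. Neurog1 and Neurog2 are proneural factors that start this program and switch on Eomes, the defining factor of PyN-IPCs, and the Neurod genes, which act later as neurons differentiate. bHLH proteins bind DNA as dimers with E proteins, Id proteins block these dimers, and Hes proteins downstream of Notch repress the proneural genes in cells that remain progenitors.

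The 7 bHLH members share a DNA-binding basic region followed by the helix-loop-helix. The first 60 bases of this domain are shown, because they show how alike the factors are that the counting had to keep apart. They were read from mouse build GRCm38 with the GENCODE annotation and are given in coding direction, with the 21 bases of the basic region in capitals. The Neurog1 stretch lies at chr13:56251579-56251638 on the minus strand in the only exon of the gene, and that of Neurog2 at chr3:127634080-127634139 on the plus strand in exon 2 of 2. Those of Neurod1 (chr2:79454660-79454719), Neurod2 (chr11:98327896-98327955), Neurod4 (chr10:130271068-130271127) and Neurod6 (chr6:55679294-55679353) lie on the minus strand in exon 2 of 2. That of Bhlhe22 lies at chr3:18055451-18055510 on the plus strand in the only exon.
Neurog1: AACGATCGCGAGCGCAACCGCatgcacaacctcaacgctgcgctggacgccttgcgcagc
Neurog2: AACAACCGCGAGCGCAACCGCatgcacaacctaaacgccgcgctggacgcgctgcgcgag
Neurod1: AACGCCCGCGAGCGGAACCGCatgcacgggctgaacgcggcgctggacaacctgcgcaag
Neurod2: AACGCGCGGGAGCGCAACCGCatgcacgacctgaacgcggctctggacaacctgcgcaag
Neurod4: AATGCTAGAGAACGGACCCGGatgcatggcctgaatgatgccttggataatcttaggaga
Neurod6: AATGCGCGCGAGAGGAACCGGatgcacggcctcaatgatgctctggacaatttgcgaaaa
Bhlhe22: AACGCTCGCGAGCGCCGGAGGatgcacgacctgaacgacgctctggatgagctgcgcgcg

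Over the 56 residues translated from the start of this domain, Neurod1 and Neurod2 were 96.4% identical and Neurog1 and Neurog2 85.7%. Bhlhe22, a repressor of the Olig-related branch of the family, was 32.1% to 35.7% identical to the other bHLH members. The transcripts of the 9 members shared no run of 60 bases, so that reads of that length would not be split between them. Eomes (chr9:118478212-118486132, plus strand, up to 6 exons) and Insm1 (chr2:146221921-146225020, plus strand, 1 exon) belong to other families. Neurod1 overlaps Cerkl on its own strand and Gm26755 on the opposite strand, both in the mouse table, so its counts carry that uncertainty.

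After filtering, the control library held 10498 cells and the Smo-cKO library 7209, with a median of 4033.5 and 4836 UMIs per cell, and the ferret sets held 10185 and 13052 cells with medians of 2556 and 3563. Each genotype is 1 library, so no difference between them has a replicate check, and no test was run. Levels are given as UMI counts scaled to the total of a class (CPM, counts for each 1e6 UMIs) with an exact Poisson 95% interval, shares as cells with at least 1 UMI with an exact Clopper-Pearson 95% interval, and all intervals cover counting error only. The targeted gene was read first: Smo had 402 UMIs in the control library (7.78 CPM, 7.04 to 8.58) and 20 in the Smo-cKO library (0.476 CPM, 0.291 to 0.734). In RG-like cells it had 74 and 3 UMIs. Gli1, a target of the pathway, had 135 and 2 UMIs. Cells were clustered without the 9 members and classes named from markers that held none of them. The RG-like cluster had 14 RG markers, among them Hes1, Hes5, Fabp7, Sox9 and Vim, and 6 astroglial ones. The control and Smo-cKO libraries gave 872 and 776 RG-like cells, 1949 and 1251 IPC-like cells, and 3814 and 3138 PyN-like cells. Cycling RG-like cells (1199 and 567), cycling cells with glial progenitor markers (1535 and 464) and an unnamed cluster with Gfap among its first genes (731 and 459) were kept as classes of their own. The Smo-cKO cells were deeper in each of the RG-like, IPC-like and PyN-like classes, so shares are also given after thinning each cell to 2900 UMIs. The mouse libraries shared 28 barcodes and the ferret sets 38.

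Microglia-like cells, which are outside the cortical lineage and should lack these factors, were read for comparison, since free RNA or mixed droplets can add UMIs to a cell. The source of the UMIs found there was not tested. In the control library, 18 of 98 microglia-like cells held an Eomes UMI (18.4%, 11.3 to 27.5), and in the Smo-cKO library 9 of 176 did (5.11%, 2.37 to 9.49). As CPM, Eomes in microglia-like cells was 17.6% (13.2 to 23.1) of its level over all cells of the control library and 5.43% (3.51 to 8.01) in the Smo-cKO library. Other members were found there too. In control microglia-like cells they ranged from 10.99% of the all-cell level (Insm1) to 26.0% (Neurod4, 3 UMIs), except Neurog1, which had 0 UMIs. In Smo-cKO microglia-like cells Neurod6 was at 3.91% and Insm1 at 5.34%. Neurog1 had 0 UMIs in microglia-like cells of both libraries, which allows a share of cells with a UMI of up to 3.06% and 1.71%. Inhibitory-like cells, the GABAergic lineage from outside the cortex, carried more: 0.884 Eomes UMIs per cell in the control library and 0.251 in the Smo-cKO library. As CPM this was 72.8% and 31.4% of the all-cell level, above the microglia-like values by more than counting error. Without the cells with the 5% highest doublet scores, the Smo-cKO value was 8.58% of the all-cell level and 0.0632 UMIs per cell. The control value hardly moved at this step, to 74.4% of the all-cell level and 0.8935 UMIs per cell. Both types are given as comparison types outside the lineage. Insm1 is also used in other neuronal lineages.

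**Figure D1:**
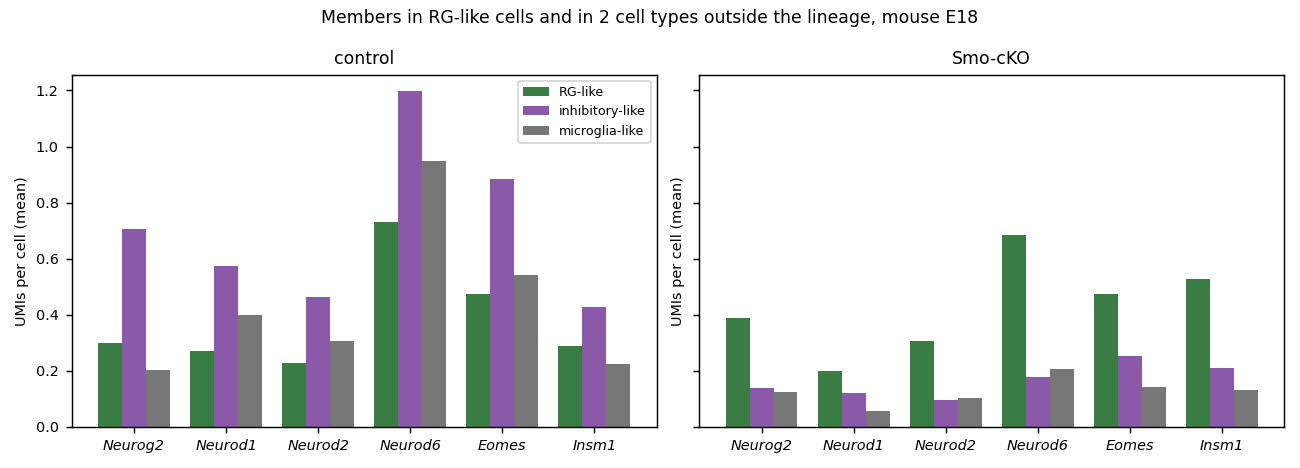
Mean UMIs per cell (vertical axis) of 6 members in RG-like, inhibitory-like and microglia-like cells of the control library (left) and the Smo-cKO library (right). In the control library the inhibitory-like bars stand above the RG-like bars for all 6 members (Eomes 0.884 against 0.474), and in the Smo-cKO library the RG-like bars stand above both others (Eomes 0.473 against 0.251 and 0.142).

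In mouse, the members peaked at successive steps of the lineage. Over the 20 clusters with at least 50 cells, both libraries pooled, Eomes was highest in IPC-like cluster 2 (850.7 CPM) and next in IPC-like cluster 4 (764.8 CPM). Neurog2 differed more between these clusters (914.6 and 341.8 CPM), as did Neurod4, a factor of the transition to neurons (38.2 and 24.6 CPM). Neurog1 was also highest in cluster 2 (8.74 CPM), with an interval that overlapped that of cluster 10, a cycling glial progenitor cluster (7.75 CPM). This pooled order was that of the control library (15.3 CPM in cluster 2 and 8.95 CPM in cluster 10), while in the Smo-cKO library the values were 1.83 CPM on 8 UMIs and 4.64 CPM on 5 UMIs. Insm1, which promotes the delamination of progenitors from the ventricle, was highest in 2 cycling clusters with glial progenitor markers (clusters 7 and 9, 419.9 and 392.0 CPM), which did not differ beyond counting error. In the Smo-cKO library alone, Insm1 was highest in the unnamed cluster 5 (456.6 CPM), followed by clusters 9 (436.1 CPM), 2 (433.9 CPM) and 7 (399.7 CPM). The later factors peaked in PyN-like clusters: Neurod1 in cluster 8 (464.9 CPM), Neurod2 in cluster 1 (608.7 CPM), and Neurod6 and Bhlhe22 in cluster 11 (1331 and 335.0 CPM). These orders compare 1 gene between clusters and say nothing of levels between genes.

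Most UMIs of the early and late members lay in different classes. IPC-like cells were 18.6% of the control cells and held 53.4% of the Neurog2 UMIs, 52.9% of the Neurog1 UMIs, 50.2% of the Neurod4 UMIs and 45.0% of the Eomes UMIs. PyN-like cells, 36.3% of the control cells, held 77.4% of the Bhlhe22 UMIs, 68.9% of the Neurod2 UMIs, 61.8% of the Neurod1 UMIs and 61.5% of the Neurod6 UMIs. A share of 31.2% of the Neurog1 UMIs and 32.0% of the Neurod4 UMIs lay in cycling cells with glial progenitor markers, while RG-like cells held 2.64% of the Eomes and 2.82% of the Neurog2 UMIs. No mouse cluster was named as cycling IPC-like. Cluster 10, among the cycling clusters with glial progenitor markers, had 4 of these and 3 IPC markers, with 294.4 CPM of Neurog2 and 320.9 CPM of Eomes in control. Whether dividing PyN-IPCs lie in that class was not tested.

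**Figure D2:**
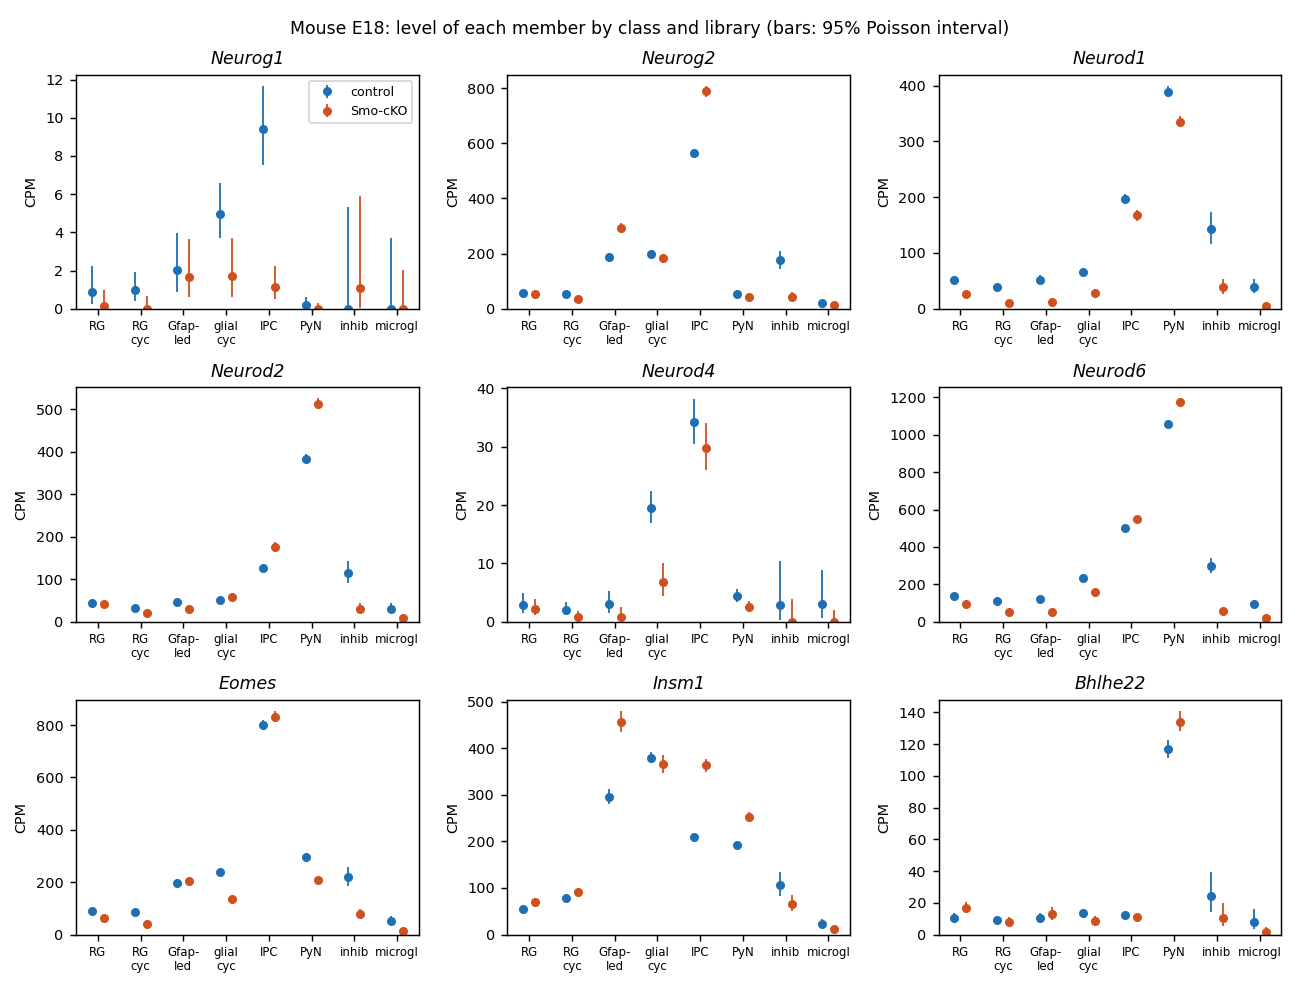
Level of each member (CPM, vertical axis, 1 panel a gene, each with its own scale) in 8 classes of mouse cells, with control in blue and Smo-cKO in orange and bars for the 95% Poisson interval. Eomes and Neurog2 peak in IPC-like cells, Neurod6 and Bhlhe22 in PyN-like cells, and Neurog1 in IPC-like cells of the control library (9.42 CPM, against 1.13 CPM in the Smo-cKO library).

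In IPC-like cells, the proneural pair differed between genotypes in opposite directions. Neurog1 had 83 UMIs in 63 of 1949 control cells and 8 UMIs in 8 of 1251 Smo-cKO cells, or 9.42 CPM (7.50 to 11.7) and 1.13 CPM (0.488 to 2.23). The ratio of Smo-cKO to control was 0.12 (0.0501 to 0.248), and the share of cells with a UMI was 3.23% and 0.640%, or 2.17% and 0.288% after thinning. Over all cells of the libraries, Neurog1 had 157 UMIs in the control and 22 in the Smo-cKO library. The 0 Neurog1 UMIs in microglia-like cells set no useful limit on its background: they allow up to 122.2% of the all-cell CPM in the control and 384.2% in the Smo-cKO library. Neurog2 was at 563.7 CPM (548.1 to 579.6) in control and 788.2 CPM (767.6 to 809.1) in Smo-cKO IPC-like cells, a ratio of 1.40 (1.35 to 1.45). Its share of cells was 73.0% and 78.7%, and 65.7% and 69.2% after thinning.

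Eomes itself was nearly equal in IPC-like cells of both genotypes. It was at 798.6 CPM (780.1 to 817.5) in the control and 831.0 CPM (809.9 to 852.5) in the Smo-cKO library, a ratio of 1.04 (1.00 to 1.08) that turned to 0.996 when libraries were scaled by the median of gene ratios. Eomes was detected in 90.8% and 93.5% of the cells, and in 84.5% and 85.0% after thinning. Insm1 differed most among the abundant members: 208.6 CPM (199.2 to 218.4) in control and 363.0 CPM (349.1 to 377.3) in Smo-cKO cells, a ratio of 1.74 (1.64 to 1.85). Its share was 53.1% and 75.1%, and 41.5% and 57.5% after thinning.

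Among the Neurod genes in IPC-like cells, Neurod2, which acts in neuronal differentiation, was higher in the Smo-cKO library (125.4 against 176.5 CPM, ratio 1.41, 1.30 to 1.53). Neurod1 was at 196.3 and 167.4 CPM (ratio 0.853, 0.792 to 0.919) and Neurod6 at 499.3 and 548.4 CPM (ratio 1.10, 1.05 to 1.15). The intervals of Neurod4 (ratio 0.873, 0.728 to 1.04) and Bhlhe22 (ratio 0.884, 0.650 to 1.20) spanned 1. Of all 10075 genes with at least 50 UMIs in IPC-like cells, 5.88% were at least 1.5-fold higher and 2.23% at least 1.5-fold lower in the Smo-cKO library, and of the 9 members 1 was higher (Insm1) and 1 lower (Neurog1). The median log2 ratio of the 9 was 0.057, beside 0.06 over all genes.

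The IPC-like class had 2 clusters, which differed in mix between libraries: cluster 2, with the progenitor-side markers Gadd45g, Btg2, Hes6, Dll1 and Dll3, made up 50.3% of the control and 56.9% of the Smo-cKO class, and cluster 4, which also had 2 PyN markers, the rest. Within cluster 2 Neurog1 had 70 and 8 UMIs (ratio 0.120, 0.0497 to 0.249), and within cluster 4 13 and 0. Neurog2 was higher in the Smo-cKO library in cluster 2 alone (753.6 and 1083 CPM, ratio 1.44, 1.375 to 1.502), whereas in cluster 4 it was lower (359.5 and 314.2 CPM, ratio 0.874, 0.803 to 0.951). Insm1 was higher in both, at a ratio of 1.88 (1.74 to 2.03) in cluster 2 and 1.35 (1.21 to 1.49) in cluster 4. Eomes moved little in either, with ratios of 1.09 (1.04 to 1.14) and 0.948 (0.897 to 1.00). Neurod1 had a ratio of 0.862 (0.745 to 0.997) in cluster 2, while in cluster 4 its interval spanned 1 (1.004, 0.9195 to 1.095). Its control level was 90.7 CPM in cluster 2 and 309.8 CPM in cluster 4, so its ratio over the class also carries the change in mix. Neurod2 (1.79 and 1.37) and Neurod6 (1.196 and 1.176) were higher in both clusters.

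**Figure D3:**
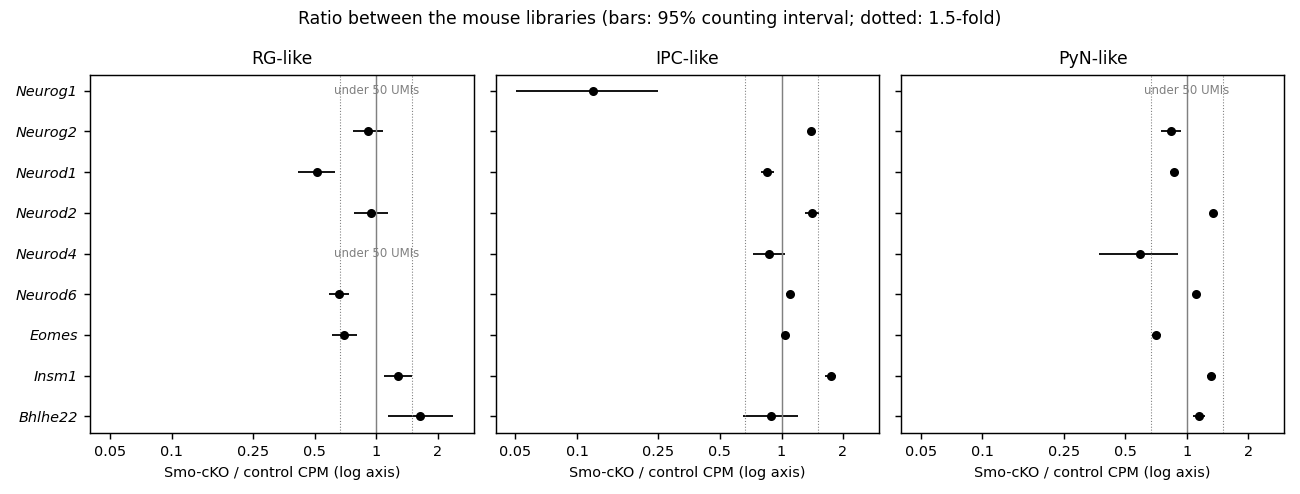
Ratio of Smo-cKO to control CPM (horizontal log axis) of each member in RG-like, IPC-like and PyN-like cells, with 95% counting intervals and dotted lines at 1.5-fold. In IPC-like cells Neurog1 lies far to the left (0.12) and Insm1 to the right (1.74), while in RG-like cells Neurod1, Neurod6 and Eomes lie left of 1. Members under 50 UMIs are marked and not drawn.

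In PyN-like cells, Eomes, Neurog2, Neurod1 and Neurod4 were lower and Neurod2, Neurod6, Bhlhe22 and Insm1 higher in the Smo-cKO library. Eomes was at 294.3 CPM (285.3 to 303.5) in the control and 208.5 CPM (200.8 to 216.4) in the Smo-cKO library, a ratio of 0.709 (0.675 to 0.744). It was detected in 47.8% (46.2 to 49.4) and 37.8% (36.1 to 39.5) of the cells, or 46.3% and 33.3% after thinning. The ratio was 0.769 (0.725 to 0.816) in PyN-like cluster 0, 0.513 (0.441 to 0.595) in cluster 1, 0.849 (0.761 to 0.948) in cluster 8 and 0.227 (0.120 to 0.404) in cluster 11. Levels outside the lineage moved in the same direction: Eomes in inhibitory-like cells had a ratio of 0.358 (0.267 to 0.475) and in microglia-like cells 0.255 (0.152 to 0.418), and their part in the PyN-like values was not tested.

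Of the late members in PyN-like cells, Neurod2 had a ratio of 1.34 (1.29 to 1.39; 383.4 and 513.5 CPM) and was detected in 67.0% and 78.7% of the cells. Neurod6, a marker of pyramidal neurons, was found in nearly all of them (93.5% and 95.5%), at 1056 and 1177 CPM and a ratio of 1.11 (1.09 to 1.14). Bhlhe22, which directs the identity and connections of upper-layer and callosal neurons, was at 116.8 and 134.2 CPM (ratio 1.15, 1.07 to 1.23). Insm1 was at 192.1 and 253.3 CPM (ratio 1.32, 1.25 to 1.39). Neurod1 (389.2 and 335.1 CPM, ratio 0.861, 0.827 to 0.896) and Neurog2 (52.6 and 44.01 CPM, ratio 0.836, 0.748 to 0.934) were lower. By cluster, the Neurog2 ratio was 0.667 (0.566 to 0.785) in cluster 0 and 1.34 (1.01 to 1.79) in cluster 1, and spanned 1 in clusters 8 (0.925) and 11 (1.004). Neurod4 was at 60 and 34 UMIs (ratio 0.588, 0.374 to 0.910), and Neurog1 at 3 and 0 UMIs, the latter allowing a share of cells with a UMI of up to 0.0956%. Of all 10684 genes measured here, 4.00% were 1.5-fold higher and 1.96% lower. Of the 8 members with enough UMIs, 0 were higher and 1, Neurod4, was lower.

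In RG-like cells of the control library, 8 of the 9 members did not exceed both comparison types. Eomes had 0.474 UMIs per cell there, below inhibitory-like (0.884) and microglia-like cells (0.541), whose median depth was 8101 UMIs against 4603 in RG-like cells. As CPM it was higher in RG-like (90.8) than in microglia-like (53.4) and lower than in inhibitory-like cells (220.1). After thinning it was detected in 12.8% of RG-like, 10.5% of microglia-like and 32.2% of inhibitory-like cells. The member that exceeded both in UMIs per cell was Neurog1, with 4 UMIs in all. Neurog2 (0.301 UMIs per cell) and Insm1 (0.289) exceeded microglia-like cells (0.204 and 0.225), but not inhibitory-like cells. Vascular-like cells, 63 in the control library, also lie outside the lineage but were not used as a comparison type. There Eomes was at 0.444 UMIs per cell and 64.9 CPM, below RG-like cells on both measures. Neurog2 was at 0.3175 UMIs per cell and 46.35 CPM there, beside 0.301 and 57.6 in RG-like cells. Whether Eomes in control RG-like cells exceeded the level in cells outside the lineage thus depended on the measure and the comparison type. The share of all genes that exceed both types was not counted in any class or species. Counts of members above both types are therefore a description and show nothing particular to the members.

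In the Smo-cKO library 8 of 9 members, all but Neurog1, exceeded both types in UMIs per RG-like cell, 6 did as CPM, and 5 (Neurog1, Neurog2, Eomes, Insm1 and Bhlhe22) did in UMIs per cell when the cells with the 5% highest doublet scores were left out. Neurog1 then rested on 1 UMI. Insm1 then stood at 0.360 UMIs per RG-like cell against 0.126 in inhibitory-like and 0.0849 in microglia-like cells, and Neurog2 at 0.166 against 0.0297 and 0.0606. For Eomes the order depended on the measure: its CPM of 63.5 and its thinned share of 7.18% in RG-like cells were below those in inhibitory-like cells (78.8 CPM and 7.46%). Within IPC-like cells, by contrast, 8 of 9 members in the control and 9 of 9 in the Smo-cKO library exceeded both types in UMIs per cell. Values per cell are not corrected for depth. The median depth in the Smo-cKO library was 6952.5 UMIs in RG-like, 3010 in inhibitory-like and 7578.5 in microglia-like cells.

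The RG-like ratios between genotypes are given beside the levels outside the lineage. Eomes was at 90.8 CPM (82.3 to 100) in the control and 63.5 CPM (57.2 to 70.4) in the Smo-cKO library, a ratio of 0.700 (0.606 to 0.807), and its share was 17.6% (15.1 to 20.2) and 11.5% (9.31 to 13.9). Per cell it was nearly the same, 0.474 and 0.473 UMIs, while the median depth of these cells was 4603 and 6952.5 UMIs. Over the alternative settings, 1 of which took a much wider set of cells by 6 RG markers each, this ratio ran from 0.366 to 1.05. Neurod1 (51.7 and 26.5 CPM, ratio 0.513, 0.415 to 0.631) and Neurod6 (139.8 and 92.1 CPM, ratio 0.658, 0.586 to 0.740) were lower. In the comparison types, the ratio of Neurod6 was 0.210 in microglia-like and 0.186 in inhibitory-like cells. The part of these lower levels in the RG-like values was not tested.

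Neurog2 in RG-like cells was at 57.6 CPM (50.9 to 65.0) in control and 52.3 CPM (46.5 to 58.5) in Smo-cKO cells, with a ratio whose interval spanned 1 (0.907, 0.766 to 1.08), and was detected in 10.2% and 10.1% of the cells, or 7.09% and 5.96% after thinning. Neurod2 likewise had an interval that spanned 1 (0.946, 0.780 to 1.15). Over the alternative settings the ratio of Neurog2 ran from 0.683 to 1.48, of Neurod2 from 0.330 to 1.22, of Neurod6 from 0.236 to 0.952 and of Neurod1 from 0.146 to 0.698. Each was lowest without the 5% highest doublet scores and highest with cells chosen by 6 RG markers each. The latter setting took 4394 control and 2900 Smo-cKO cells, against 872 and 776 in the RG-like class. It thus held many cells outside that class, so the upper ends are not values of RG-like cells alone. Within the RG-like class Insm1 was higher (55.4 and 70.8 CPM, ratio 1.28, 1.09 to 1.501), detected in 19.2% and 27.7% of the cells, or 11.7% and 14.2% after thinning. Bhlhe22 had 46 and 96 UMIs (ratio 1.64, 1.14 to 2.39), a direction that turned to 0.938 at a finer clustering and to 0.818 without the highest doublet scores. Neurog1 had 4 and 1 UMIs and Neurod4 13 in each library, too few to compare. Of all 9949 genes with at least 50 UMIs in RG-like cells, 5.81% were 1.5-fold higher and 5.74% lower. Of the 7 members tested, 1 was higher (Bhlhe22) and 2 were lower (Neurod1 and Neurod6).

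Outside these classes, Insm1 also stood high in cluster 5, as did Neurog2 in the Smo-cKO library. This cluster was led by 1500015O10Rik and Gfap, an intermediate filament gene of astroglia. It was left unnamed because its 5 RG markers stood beside 4 astroglial ones that were more frequent among its leading genes. Insm1 had 1.601 UMIs per cell in the control and 3.55 in the Smo-cKO library there, and was detected in 58.3% and 73.2% of the cells, or 46.3% and 57.0% after thinning. Its CPM of 295.9 and 456.6 gave a ratio of 1.54 (1.43 to 1.67). Neurog2 over all cells was at 179.9 CPM in the control and 200.9 CPM in the Smo-cKO library, and in control inhibitory-like cells at 175.5 CPM. In cluster 5 Neurog2 was at 188.4 CPM (175.1 to 202.4) and 294.2 CPM (276.6 to 312.5), a ratio of 1.56 (1.42 to 1.72). It was detected in 28.9% and 38.3% of the cells, or 22.5% and 28.5% after thinning. Eomes was at 198.3 and 205.0 CPM there, with an interval that spanned 1 (1.03, 0.934 to 1.15), while Neurod1 (52.4 and 12.6 CPM) and Neurod6 (122.6 and 49.9 CPM) were lower in the Smo-cKO library. In this cluster 4 of 9 members in the control and 8 of 9 in the Smo-cKO library exceeded both comparison types per cell, and 4 and 6 of 9 as CPM.

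In cycling cells with glial progenitor markers, the early factors Neurog1 and Neurod4 were lower in the Smo-cKO library. Neurog1 had 49 and 6 UMIs (4.98 and 1.70 CPM, ratio 0.342, 0.120 to 0.7999) and Neurod4 192 and 24 UMIs (19.5 and 6.81 CPM, ratio 0.350, 0.219 to 0.536). Eomes was at 239.3 and 136.0 CPM (ratio 0.568, 0.514 to 0.627). Insm1 was at 379.5 and 365.7 CPM with an interval that spanned 1 (0.964, 0.904 to 1.03). The class holds clusters 7, 9 and 10, whose mix differed between libraries (626, 412 and 497 control cells, 134, 214 and 116 Smo-cKO cells). Within them the Insm1 ratio was 0.937 (0.854 to 1.03), 1.16 (1.03 to 1.31) and 0.835 (0.726 to 0.957), and that of Eomes 0.481, 0.869 (0.730 to 1.03) and 0.448. The Neurog1 ratio spanned 1 in each of the 3 clusters. In cycling RG-like cells Eomes was at 87.8 and 39.6 CPM (ratio 0.451, 0.386 to 0.525), with 78.8 CPM in Smo-cKO inhibitory-like cells. There 2 of 9 members in the control and 7 of 9 in the Smo-cKO library exceeded both comparison types in UMIs per cell, but 1 and 2 of 9 did as CPM, the median depth of these cells being 6066 and 9206 UMIs. Cycling RG-like cells pooled clusters 6, 12 and 13, where the Eomes ratio was 0.351, 0.354 and 0.803 (0.604 to 1.06). The Neurog2 ratio went both ways in them, at 0.456, 0.263 and 2.245 (1.652 to 3.076).

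The members were also read within single IPC-like cells. Of the 1769 control cells with an Eomes UMI, 74.1% (71.9 to 76.1) also held Neurog2, against 62.8% of the 180 cells without. In the Smo-cKO library 80.4% (78.0 to 82.7) of 1170 and 53.1% of 81 cells did. The gap was narrower after thinning, when the shares were 66.4% and 62.1% in the control and 70.8% and 60.03% in the Smo-cKO library. Neurod4 was found in 12.4% of control cells with and 3.33% of those without Eomes (8.56% and 5.85% after thinning), and in 12.1% and 9.88% in the Smo-cKO library (7.21% and 5.57% after thinning). Of the 63 control cells with a Neurog1 UMI, 58 held Neurog2 (92.1%, against 72.4% of cells without Neurog1) and 61 held Eomes (96.8%, against 90.6%), and all 8 Smo-cKO cells with Neurog1 held both.

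Of the IPC-like cells with Neurog2, a lower share held the later Neurod genes. Neurod1 was held by 39.1% of control cells with Neurog2 and 50.8% of those without, and by 36.2% and 61.8% in the Smo-cKO library. After thinning these shares were 30.3% and 43.9%, and 24.5% and 45.0%. Neurod6 was held by 60.6% and 72.2% of thinned control cells with and without Neurog2, and by 61.0% and 78.6% in the Smo-cKO library. These values compare cells of 1 library each and were not tested.

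**Figure D4:**
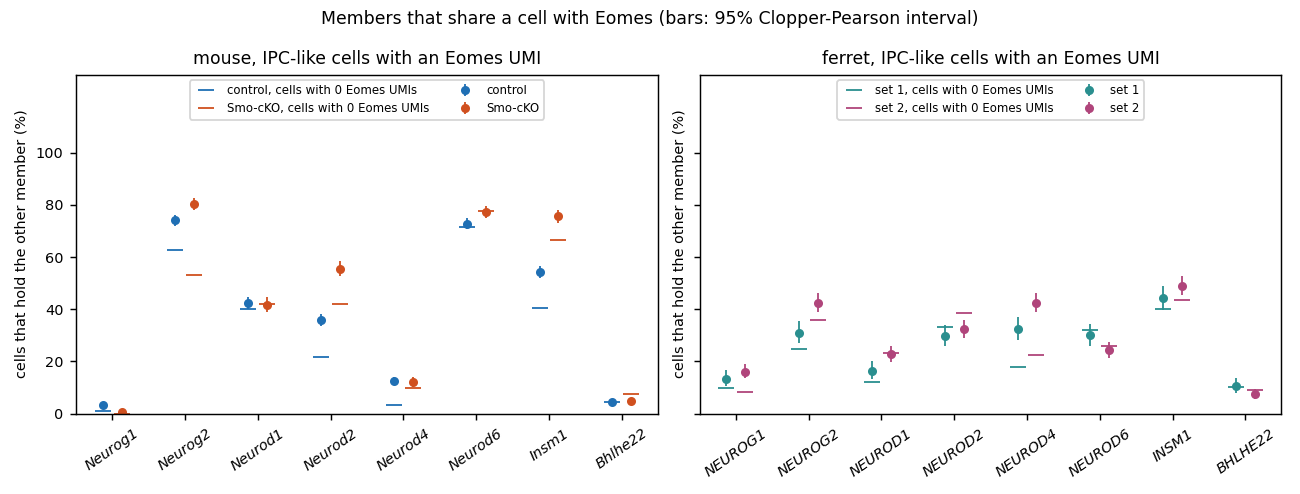
Share of IPC-like cells with an Eomes UMI that also held each other member (points, with 95% Clopper-Pearson bars), and the share among cells with 0 Eomes UMIs (short lines), in mouse (left) and ferret (right). The gap between point and line is widest for Neurog2 in mouse Smo-cKO cells (80.4% against 53.1%), and in ferret NEUROD4 stands above its line in both sets (32.5% against 17.9%, and 42.5% against 22.3%).

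The other genes of the pathway were taken as 6 lists. The E proteins Tcf3, Tcf4 and Tcf12, the dimer partners of the members, had 0 of 3 past 1.5-fold in RG-like, IPC-like and PyN-like cells, with ratios in IPC-like cells of 1.16, 1.18 and 1.25. Of the 4 Id genes, 1 was higher in RG-like cells, Id3 (202.7 and 524.8 CPM, ratio 2.59, 2.40 to 2.79), while Id1, Id2 and Id4 had ratios of 0.863, 0.955 and 0.928. In IPC-like cells 2 of 4 were higher, Id2 (298.6 and 489.6 CPM, ratio 1.64) and Id3 (14 and 60 UMIs, 1.59 and 8.48 CPM). Id3 was also higher outside the lineage, at 5.03 and 47.4 CPM in microglia-like and 50.4 and 89.4 CPM in inhibitory-like cells, above its level in IPC-like cells, and Id2 had a ratio of 1.68 in microglia-like cells. The part of these levels in the IPC-like values was not tested. The median log2 ratio of the Id genes in IPC-like cells was 0.55, beside 0.06 for all genes. Of the Notch effectors in RG-like cells, Hey1 was higher (ratio 1.51), and Hes1 and Hes5, which repress proneural genes, had ratios of 0.971 and 0.979. In IPC-like cells Hes1 had a ratio of 0.641 on 33 and 17 UMIs, with an interval that spanned 1 (0.335 to 1.19), while Hes5 (0.737) and Hey1 (1.25) were within 1.5-fold. In PyN-like cells 2 of 3 Id genes were higher, Id3 (39 and 76 UMIs) and Id4 (105 and 176 UMIs), and 0 of 2 Notch effectors were past 1.5-fold.

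Of the upstream progenitor factors, 1 of 6 was higher in RG-like cells, Emx2 (55.2 and 90.5 CPM), and Sox2 had a ratio of 0.804. Emx2 was also higher in IPC-like (ratio 1.69) and PyN-like cells (ratio 1.599). Of this list, 2 of 7 were higher and 1 lower in IPC-like cells, beside 5.88% and 2.23% of all genes. In PyN-like cells 2 of 7 were higher and 0 lower, beside 4.00% and 1.96%. Olig2, named after its values were seen, was lower in IPC-like cells (ratio 0.553). In inhibitory-like cells 3 of 5 of the list were lower, with a median log2 ratio of -1.17 beside 0.04 for all genes. The share of all genes that were lower was not counted there.

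Of the targets and partners of the proneural program, 3 of 11 were lower in RG-like cells and 0 higher, Mfng (ratio 0.415), Sstr2 (ratio 0.566) and Sox11 (ratio 0.652), with a median log2 ratio of -0.45, beside 5.74% lower among all genes. In microglia-like cells 7 of 10 of this list were lower, with a median of -1.04 beside -0.07 for all genes (Sstr2 0.295, Sox11 0.257). The share of all genes that were lower was not counted in microglia-like cells, so this count has no background to be read against. The part of these lower levels in the RG-like values was not tested. In IPC-like cells 1 of 13 was higher, the Notch ligand gene Dll1 (ratio 1.55), and 1 lower, Nhlh1 (ratio 0.594), with a median of 0.02. In PyN-like cells 2 of 13 were lower, Mfng (ratio 0.622) and Nhlh1 (ratio 0.561). Of the pyramidal neuron factors, 2 of 9 were lower in RG-like cells, Mef2c (ratio 0.422) and Tbr1 (ratio 0.579), with a median of -0.22. In microglia-like cells 3 of 4 of these were lower, again without a share over all genes. In IPC-like cells 1 of 10 was higher (Fezf2, ratio 1.54) and 1 lower (Prdm8, 48 and 14 UMIs), and in PyN-like cells 1 of 10 was higher (Bcl11b, ratio 1.69) and 1 lower (Mef2c, ratio 0.397). Sox11, Dll1, Nhlh1, Fezf2, Prdm8 and Bcl11b were named after their values were seen.

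In ferret at E39, the order of the members was read in the same way, with the barcode sets given apart as set 1 and set 2. NEUROG1 was highest in cycling IPC-like cells, at 103.1 CPM (86.2 to 122.3) in set 1 and 161.1 CPM (138.0 to 186.8) in set 2, and was detected in 20.7% and 39.7% of these 406 and 242 cells. In the other IPC-like cells it was at 34.8 and 27.9 CPM, in cycling RG-like cells at 15.6 and 21.02 CPM and in PyN-like cells at 0.714 and 0.779 CPM. NEUROG2 was likewise highest in cycling IPC-like cells (183.4 and 396.1 CPM). INSM1 was highest in them too (275.5 and 312.8 CPM, against 133.6 and 167.2 CPM in cycling RG-like cells).

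EOMES and NEUROD4 were highest in the other IPC-like cells. EOMES was at 246.8 and 446.5 CPM there, detected in 40.6% and 67.3% of 847 and 878 cells, and in cycling IPC-like cells at 162.1 and 352.6 CPM. NEUROD4 was at 141.8 and 175.5 CPM in IPC-like cells and at 95.2 and 141.6 CPM in the cycling ones. In PyN-like cells EOMES was at 10.95 and 10.81 CPM, beside 14.4 and 10.9 CPM in microglia-like cells (on 4 and 3 UMIs) and 3.49 and 3.70 CPM in inhibitory-like cells (on 1 and 13 UMIs). Its value thus lay above the inhibitory-like one in both sets, but in set 1 the latter rests on 1 UMI, too few to set an order. In CPM the PyN-like value of EOMES was not above the microglia-like one, which also rests on few UMIs. NEUROD6 (953.6 and 960.4 CPM), NEUROD2 (331.7 and 416.8 CPM) and BHLHE22 (252.5 and 274.3 CPM) were high in PyN-like cells, where NEUROD6 was detected in 82.2% and 84.0%. Ferret clusters without a name held 51.0% of the set 1 and 31.8% of the set 2 cells, and NEUROD1 was highest in one of them (133.9 CPM, against 95.7 CPM in IPC-like cells, both sets together).

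**Figure D5:**
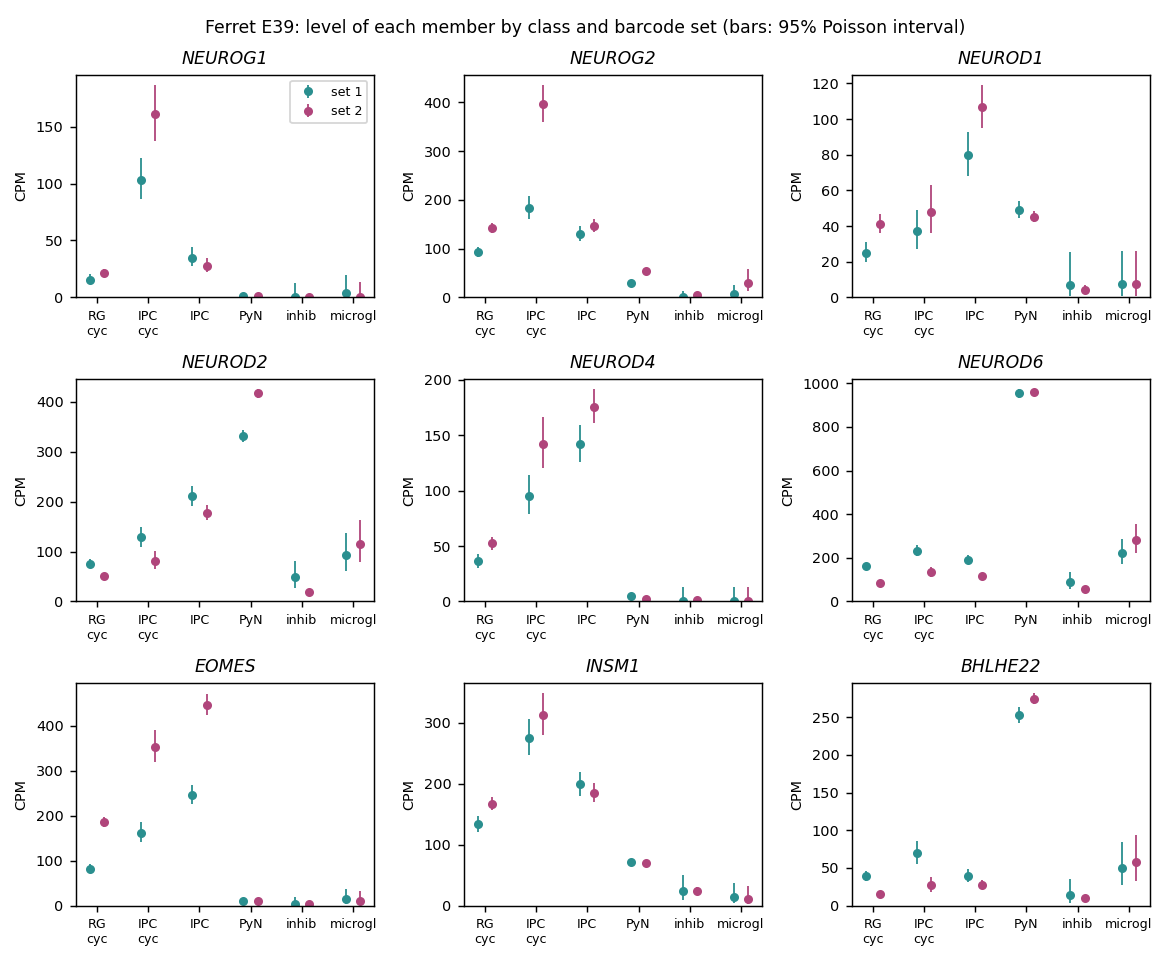
Level of each member (CPM, vertical axis, 1 panel a gene, each with its own scale) in 6 classes of ferret cells, with barcode set 1 in green and set 2 in purple and bars for the 95% Poisson interval. NEUROG1, NEUROG2 and INSM1 peak in cycling IPC-like cells, EOMES, NEUROD1 and NEUROD4 in the other IPC-like cells, and NEUROD2, NEUROD6 and BHLHE22 in PyN-like cells.

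The ferret cycling RG-like class pooled cluster 8 (1041 cells), with 3 cycling markers, and cluster 9 (981 cells), with 15. Among the 20 clusters with at least 50 cells, both sets together, cluster 9 was second highest in NEUROG2 (149.4 CPM) and INSM1 (219.6 CPM). It stood above cluster 8 in these and in EOMES, so the class values are a mix of both. In this class, 6 of 9 members exceeded inhibitory-like and microglia-like cells in UMIs per cell in each set. EOMES was at 82.0 and 186.5 CPM in 16.4% and 31.5% of 882 and 1140 cells (24.9% together, and 9.72% with anchor integration or 9.92% at a finer clustering), and NEUROG2 at 92.4 and 142.4 CPM in 21.4% and 33.3%. The 3 that did not exceed both were NEUROD2 (75.2 and 51.1 CPM, against 93.3 and 116.1 CPM in microglia-like cells), NEUROD6 (162.7 and 85.5 CPM, against 222.5 and 283.1 CPM) and BHLHE22 (39.1 and 15.0 CPM, against 50.3 and 58.1 CPM). The sets differed in EOMES beyond counting error in each progenitor class. Among cells with at least 2000 UMIs, thinned to that depth, EOMES was still detected in 11.7% and 20.2% of cycling RG-like and 37.6% and 54.3% of IPC-like cells. In ferret IPC-like cells NEUROD4 was held by 32.5% (28.3 to 36.9) of EOMES cells and 17.9% of the others in set 1, and by 42.5% (38.9 to 46.2) and 22.3% in set 2. After thinning these shares were 26.9% and 14.8%, and 30.2% and 20.0%. A higher share of cells with than without NEUROG1 held NEUROG2, 50.7% against 24.3% in set 1 and 76.2% against 34.8% in set 2. Ferret and mouse levels came from different tables, stages and preparations and were not compared as values.

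The genes whose level over the clusters was most like that of a member were found by Pearson's r of log2(CPM + 10) over the 20 mouse clusters with at least 50 cells, which share libraries and depth. Eomes was most like Mfap4 (r = 0.984), Pipox (0.942) and Btbd17 (0.942), and Neurog1 most like Gadd45g (0.862), Dll1 (0.83) and Dll3 (0.82). Insm1 stood with the cell cycle kinase gene Cdk4 (0.908) and with Cdk2ap1 (0.946) and Efs (0.904). Neurog2 was most like Rhbdl3 (0.881), Ptgds (0.879) and Btbd17 (0.872), and Neurod4 most like Mdga1 (0.881), Rhbdl3 (0.875) and Dnah8 (0.843). Neurod6 was most like Enc1 (0.972), Zbtb18 (0.971) and Pou3f1 (0.968), and Bhlhe22 was like Prdm8 (0.976) and Trnp1 (0.964). Neurod2 was most like Nkain3 (0.965), Wbscr17 (0.962) and Zbtb18 (0.96), and Neurod1 most like Lrrc16b (0.981), 2600014E21Rik (0.978) and the glutamate transporter gene Slc17a6 (0.977). In the 20 ferret clusters of this size, NEUROG1 was again most like GADD45G (0.881), and NEUROD4 and EOMES both had DLL3 among their 3 (0.942 and 0.939).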

How the data were processed

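The authors deposited 1 table of UMI counts for mouse and 1 for ferret, with whole-number counts per gene and cell barcode that were not normalized. Per the labels they used Cell Ranger, StringTie and Seurat 3, with mm10 as the build named; the ferret build was not given in the sources used here. Mouse barcodes end in 1 of 2 suffixes. The suffix with 10524 barcodes was taken as control and the one with 7596 as Smo-cKO, because these numbers equal the cell numbers that the study's methods state per genotype after filtering. The limits on genes and mitochondrial UMIs below left 10498 and 7209 of them. Were this wrong, every genotype direction would reverse. Nothing says that cells came from more than 1 culture or animal pool per library.

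Cells with 750 to 5000 genes and under 10% mitochondrial UMIs were kept. Counts were clustered in Seurat 5.3.0 (R 4.3.3; 2000 variable genes without the 9 members, 30 dimensions, resolution 0.8). A cluster was named "-like" with at least 3 markers at log2 of 1 or more above the rest (10 CPM added). Scrublet (scanpy 1.11.5) called 722 control cells, 1 Smo-cKO cell and 1 in each ferret set, so it did not work in 3 of 4, and called cells were kept. UMIs were summed per class and library. Ratios have an exact conditional binomial 95% interval (scipy 1.17.1); log2 ratios have 1 CPM added. "Higher" and "lower" in counts of genes mean at least 1.5-fold for genes with 50 or more UMIs, summed over the pair of libraries. Depth was 51657121 UMIs in control, 42057782 in Smo-cKO, and 30548876 and 56090792 in the ferret sets. In a simulation of the IPC-like comparison over 10075 genes, 100.0% of 200 genes changed 2-fold had the right sign and 97.0% lay within their interval. Its counts were drawn with Poisson error alone, the error the interval assumes, so it checks the calculation only. Differences between cells, clusters or animals were not part of it.

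The text names the 9 members, all E protein, Id and Notch effector genes, the 2 genes of each other list with the largest ratio in RG-like cells, and the 3 genes most like each member. Some genes that this rule names are not reported here. The members and lists were chosen with earlier results of these data known. Gene symbols of 16568 of 17170 mouse rows and 21910 of 22008 ferret rows matched the reference tables.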

Additional observations from a re-analysis of the deposited data

How the results depend on the processing

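No paired analysis was possible because each genotype was 1 library and no test was run. Of the ratios in IPC-like cells, that of Neurog1 ran from 0.0542 to 0.208 and that of Insm1 from 1.67 to 1.80 over the settings tried. Neurog2 moved from 1.40 to 1.30 at resolution 0.4 and to 1.34 when libraries were scaled by the median of gene ratios, which took Eomes to 0.996. Eomes in PyN-like cells ran from 0.672 to 0.709. For RG-like cells, the setting with 6 RG markers each took 4394 control and 2900 Smo-cKO cells, against 872 and 776 in the main class. RG-like ratios were less stable: Eomes ran from 0.366 to 1.05 and Neurod1 from 0.146 to 0.698. Bhlhe22 reversed to 0.938 at resolution 1.6 and to 0.818 without the 5% highest doublet scores. The cause was not tested.

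Members higher in RG-like cells went from 1 to 0 at resolution 1.6, without the highest doublet scores, with cycling clusters switched, with cells chosen by 6 markers each, at 200 UMIs and at 2-fold. Members lower there went from 2 to 4 at resolution 1.6 and without the highest doublet scores, to 1 with 6 markers or all deposited cells, and to 0 at 2-fold. In IPC-like cells the 1 higher became 3 at resolution 1.6 and 0 at 2-fold, and the 1 lower became 0 at 200 UMIs. In PyN-like cells the 1 lower became 0 without integration, at 200 UMIs and at 2-fold. Without the highest doublet scores, a setting chosen after seeing the data, the members above both comparison types in Smo-cKO RG-like cells went from 8 to 5, and Eomes in microglia-like cells of that library from 5.43% to 2.76% of the all-cell CPM. The EOMES share in ferret cycling RG-like cells (24.9%) was 9.72% with anchor integration, 28.7% at resolution 0.4, 9.92% at resolution 1.6, 16.4% in set 1 and 31.5% in set 2. That in all ferret IPC-like cells (51.8%) was 59.2% with integration, 55.4% at resolution 1.6, 38.3% in set 1 and 66.8% in set 2. Depth limits Neurog1, Neurod4 and Bhlhe22 in RG-like cells, where each had under 150 UMIs.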
